A study of Mus musculus with 8 samples.

Results

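Galectins, S100 proteins, annexins and vimentin are abundant in activated T cells that leave lymph nodes for tissues, and 10 of their genes were followed here in 2 populations of regulatory T cells (Tregs). The genes were Lgals1, Lgals3, S100a4, S100a6, S100a10, S100a11, Anxa1, Anxa2, Anxa5 and Vim. They were taken by symbol, and all 10 were found among the 47069 Ensembl genes shared by both deposited tables. They were chosen by their difference in FPKM between the 2 populations in an earlier analysis of the same tables, so that difference is given as a description, and where the fit's calls are counted for these genes the counts support nothing.

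Tregs were sorted from lymph nodes of C57BL/6 mice of 6 to 8 weeks of age. Every mouse carried 35EbiT together with the Blimp1-GFP KI allele, so both are shared by the 2 groups. All cells were CD4+CD25+. Ebi3-Treg were Thy1.1+ and Blimp1-, whereas the Blimp1-Treg population was Thy1.1- and Blimp1+. Each group had 4 libraries, and RNA was sequenced after low-input amplification. The labels do not say whether animals were pooled or whether replicates came from separate animals, so the spread between libraries may be technical. Values are FPKM (fragments per kilobase of gene, scaled to the size of the library), a level per length, which for short genes also differed between the tables. Replicates 1 and 2 of both groups are in one table and replicates 3 and 4 in the other.

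The depth behind the values, in units of 1e6 fragments, ran from 13.3 to 25.6 in Ebi3-Treg libraries and from 14.7 to 31.3 in Blimp1-Treg libraries. The reporter genes followed the labels in every library, with Ebi3 at 20.1 to 46.6 FPKM in the Ebi3-Treg libraries and at 4.94 to 11.7 FPKM in the Blimp1-Treg libraries. Prdm1, which encodes Blimp1, had 1.94 to 4.33 FPKM in the Ebi3-Treg libraries and 52.2 to 121 FPKM in the Blimp1-Treg libraries. The Treg and CD4 T cell markers (7 of 7 in the files, Foxp3 and Cd3e among them) summed to 2850 to 4314 FPKM in Ebi3-Treg libraries and 3673 to 6621 in Blimp1-Treg libraries. Markers of B cells (8 of 8) summed to 248 FPKM in library 1 of Ebi3-Treg and to 171 FPKM in library 1 of Blimp1-Treg, against 32.5 to 72.6 FPKM in the other libraries. Macrophage and monocyte markers (8 of 8, with Itgam at 0 in at least 1 library), whose source cells are rich in galectins and S100 proteins, summed to 12.7 to 111 FPKM in Ebi3-Treg libraries and 9.51 to 37.6 in Blimp1-Treg libraries. Sums in FPKM were 11.4 to 63.4 in Ebi3-Treg and 10.6 to 36.4 in Blimp1-Treg for CD8 and NK cells, 203 to 375 and 257 to 427 for plasma cells, whose list holds genes that Tregs also express, and 6.43 to 21.5 and 4.65 to 12.4 for dendritic cells. For neutrophils and mast cells they were 7.21 to 26.9 and 2.83 to 23.8, and for fibroblasts and endothelial cells 31.4 to 69.7 and 17.3 to 35.9, in the same order of groups, with Ly6g, Camp, Elane, Mpo, Col1a2 and Cdh5 each at 0 in at least 1 library. The part of these cells in the results was not tested, and Lyz2 alone made up 99.1 and 91.1 FPKM of the highest macrophage sums (111 and 98.3 FPKM, in Ebi3-Treg 1 and 2). Of the other macrophage markers, Cd68 was at 2.61 to 5.51 FPKM in the Ebi3-Treg libraries and 4.22 to 8.63 FPKM in the Blimp1-Treg libraries. In Ebi3-Treg 1, Pecam1 made up 61.2 FPKM of the fibroblast and endothelial sum, and Kit 24.2 FPKM of the neutrophil and mast cell sum. In such bulk samples, fewer expressing cells and less RNA per cell cannot be told apart.

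Galectins are lectins that bind galactose-containing sugars on glycoproteins and, once secreted, cross-link receptors on T cells. S100 proteins are small calcium sensors that bind partner proteins, and annexins are proteins that bind acidic phospholipids of membranes when calcium rises. The families meet in a complex of S100a10 with Anxa2 at the inner face of the plasma membrane, and S100a11 pairs in a like way with Anxa1. Vimentin is the intermediate filament protein of lymphocytes and mesenchymal cells.

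Of the 10 genes, 9 had at least 1 FPKM in at least 4 libraries and entered the fit over 12273 genes, and S100a4 did not. All 9 had a negative log2 fold change (Ebi3-Treg minus Blimp1-Treg, of log2(FPKM + 1), in a limma fit that held the table as a term). Their median was -1.27, against 0.07 over all genes tested. The fit placed 5 of the 9 (Lgals1, Lgals3, S100a6, Anxa2 and Vim) past an adjusted p of 0.05 on the lower side, where 2.93% of all genes tested lie. Blocking on the replicate number made the count 7, with S100a10 and S100a11 added, where 8.94% of all genes tested lie. Both Ebi3-Treg libraries were below both Blimp1-Treg libraries within each table for 7 of the 9, which holds for 7.3% of all genes tested. Of the 9, Lgals3, S100a6, Anxa2 and Vim (4) had every Ebi3-Treg library below every Blimp1-Treg library, as 4.5% of all genes tested do. Fitted on replicates 3 and 4 alone, 6 of the 9 were past the threshold on the lower side, with 5.47% of all genes tested, and on replicates 1 and 2 alone 0 of the 9, as 0 of all genes tested passed there (707 had an unadjusted p under 0.05). The count over both tables was 2 without the table term, and 4 without Ebi3-Treg 3 or without Ebi3-Treg 4. As the genes were picked with this contrast known, nothing is read from these counts.

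Promoter sequence was taken from RefSeq (GRCm38.p6, 250 bases before to 50 after the start), which held 8 of the 10 genes, namely all but Lgals1 and S100a10. The files were made on mm9, so these coordinates belong to the sequence alone. The letters TGANTCA, the site of AP-1 factors that T cell activation induces, were searched on both strands and occurred in S100a11 (at -136 and -38 from the start) and Anxa2 (at -95), against 7.81% of 32851 promoters of this length. The letters AGNGAAAG, the core of the Blimp1 motif, occurred in 0 of the 8 on either strand, against 8.63% of all promoters. TATAAA on the gene's strand occurred in S100a4, Anxa1, Anxa2 and Vim, against 8.32%. A match is a string of letters and not a measured site. The 2 promoters with AP-1 letters are shown, with these letters in capitals, S100a11 at chr3:93520246-93520545 and Anxa2 at chr9:69453433-69453732, both on the plus strand.
S100a11: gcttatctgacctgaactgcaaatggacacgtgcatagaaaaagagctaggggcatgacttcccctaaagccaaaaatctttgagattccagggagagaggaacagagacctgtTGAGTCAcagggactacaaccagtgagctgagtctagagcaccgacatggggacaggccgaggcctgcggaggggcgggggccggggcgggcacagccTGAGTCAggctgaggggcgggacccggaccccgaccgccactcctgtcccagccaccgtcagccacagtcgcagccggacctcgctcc
Anxa2: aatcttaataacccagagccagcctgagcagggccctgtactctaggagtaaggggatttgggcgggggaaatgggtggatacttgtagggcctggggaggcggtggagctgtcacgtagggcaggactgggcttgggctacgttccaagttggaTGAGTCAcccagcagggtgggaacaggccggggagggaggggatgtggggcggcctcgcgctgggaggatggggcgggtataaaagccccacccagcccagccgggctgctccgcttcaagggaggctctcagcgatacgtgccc

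**Figure D1:**
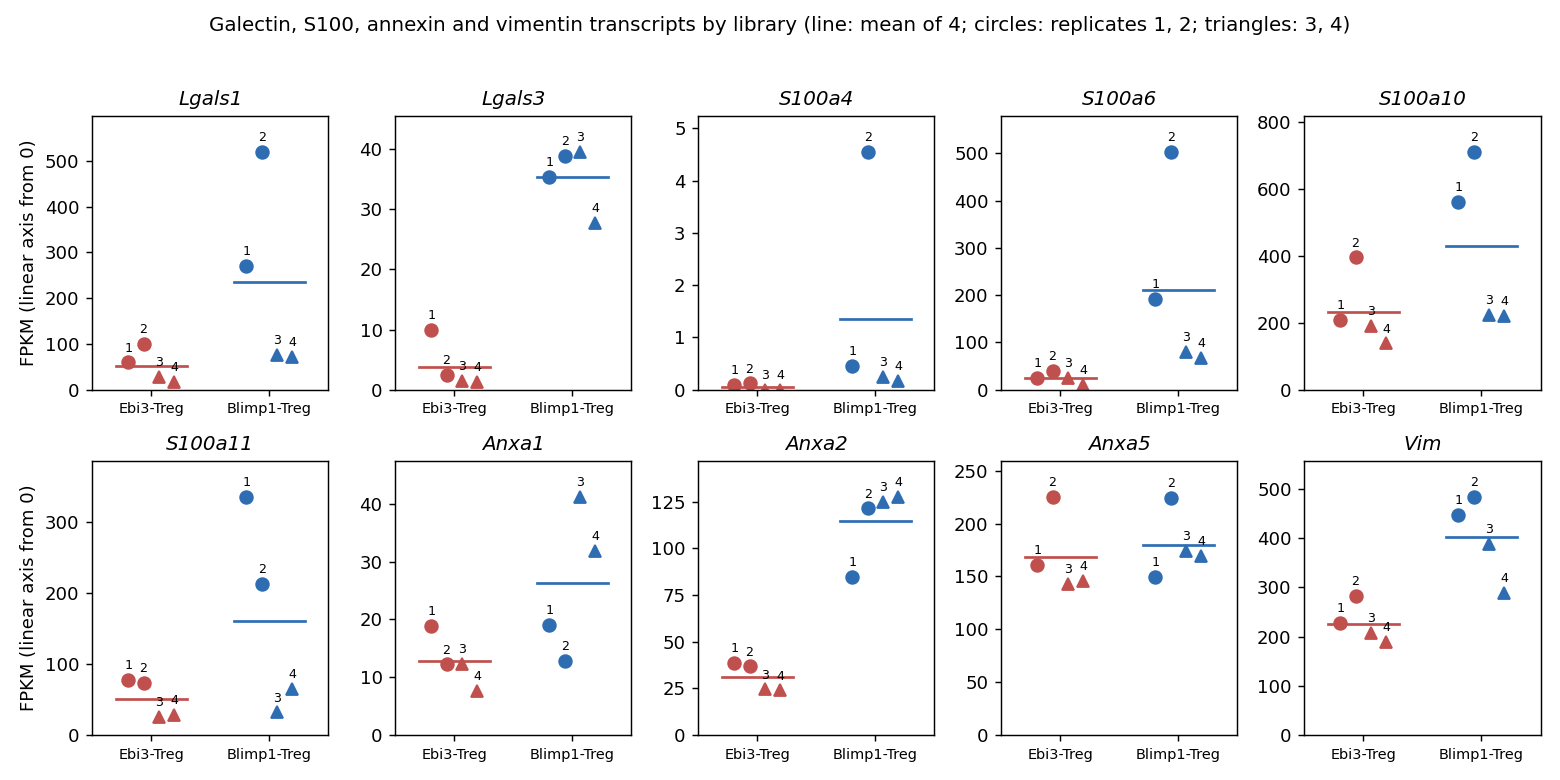
FPKM (vertical axes, linear from 0) of the 10 genes in each Ebi3-Treg library (red, left) and Blimp1-Treg library (blue, right); digits give the replicate number, circles mark replicates 1 and 2, triangles replicates 3 and 4, and lines the mean of 4 libraries. Lgals3 stood at 1.32 to 9.94 FPKM in Ebi3-Treg libraries and 27.7 to 39.6 in Blimp1-Treg libraries, whereas the groups overlapped for Anxa5.

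Lgals3, which encodes galectin-3, had the lowest log2 fold change of the 9 tested genes over both tables, although S100a6 was lower in the first. It was at 9.94, 2.44, 1.51 and 1.32 FPKM in Ebi3-Treg 1 to 4, against 35.5, 38.9, 39.6 and 27.7 FPKM in Blimp1-Treg 1 to 4. The groups did not overlap, and Ebi3-Treg 1 was the high library of its group. On the log2 scale the difference was -3.23 (SE 0.40), with -2.63 in the first table (replicates 1 and 2) and -3.82 in the second. Without Ebi3-Treg 1 it was -3.68.

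Lgals1 encodes galectin-1, which can drive activated effector T cells into death and which Tregs secrete. It was at 59.5, 101, 27.1 and 16.7 FPKM in Ebi3-Treg 1 to 4, against 271, 520, 76.2 and 71.9 FPKM in Blimp1-Treg 1 to 4. The groups overlapped across tables, because Ebi3-Treg 2 was above Blimp1-Treg 3 and 4, and did not overlap within either table. On the log2 scale the difference was -2.01 (SE 0.28), with -2.26 in the first table (replicates 1 and 2) and -1.75 in the second.

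S100a6 encodes calcyclin, an S100 protein of proliferating cells. Its levels were 24.3, 39.9, 24.1 and 10.7 FPKM in Ebi3-Treg 1 to 4, against 192, 503, 79.3 and 66.6 FPKM in Blimp1-Treg 1 to 4. Every Blimp1-Treg library was above every Ebi3-Treg library, and Blimp1-Treg 2 was the highest. On the log2 scale the difference was -2.69 (SE 0.41), with -3.28 in the first table (replicates 1 and 2) and -2.10 in the second.

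S100a10 encodes p11, the S100 protein that has lost calcium binding and holds Anxa2 in its complex. It had the highest mean of the 10 genes over all libraries, although Vim was above it in 5 of the 8, with 208, 395, 190 and 138 FPKM in Ebi3-Treg 1 to 4 and 561, 710, 224 and 220 FPKM in Blimp1-Treg 1 to 4. Each Blimp1-Treg library was above the Ebi3-Treg libraries of its own table, but Ebi3-Treg 2 was above Blimp1-Treg 3 and 4. The log2 fold change was -0.79 (SE 0.25), with -1.14 in the first table (replicates 1 and 2) and -0.45 in the second.

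S100a11, the S100 partner of Anxa1, was at 77.6, 72.9, 25.4 and 28.6 FPKM in Ebi3-Treg 1 to 4, against 336, 212, 31.7 and 65.0 FPKM in Blimp1-Treg 1 to 4. Both Blimp1-Treg libraries were above both Ebi3-Treg libraries within each table, but the Ebi3-Treg libraries of the first table were above the Blimp1-Treg libraries of the second. The log2 fold change was -1.27 (SE 0.31), with -1.81 in the first table (replicates 1 and 2) and -0.73 in the second.

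S100a4, which encodes the metastasis-associated protein also known as FSP1, was near 0 in all but 1 library. It was at 0.0937, 0.119, 0 and 0 FPKM in Ebi3-Treg 1 to 4, against 0.46, 4.55, 0.25 and 0.163 FPKM in Blimp1-Treg 1 to 4. These values were whole multiples of 1 read with a gene length of 417 bases, the shortest that made them whole, which gave 1, 1, 0 and 0 reads in the Ebi3-Treg libraries and 6, 37, 2 and 1 reads in Blimp1-Treg. A count of 0 allows up to 3 reads, or 0.54 FPKM in Ebi3-Treg 3 and 0.326 FPKM in Ebi3-Treg 4, for counting error only. Of the 46 Blimp1-Treg reads, 37 were in Blimp1-Treg 2, and no fold change is given. In the reference annotation 302 of the 584 exon bases of S100a4 are shared with Gm42674, a gene model on the same strand, which the tables list at 0 in every library. How reads on shared exons were counted is not given in the sources used here, so the low level of S100a4 is uncertain.

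The S100a genes lie in a cluster on chromosome 3. Of 15 S100a genes there in the reference, 14 were in the tables, 7 of these were under 1 FPKM in every library, and 4 exceeded 10 FPKM in any library. The 4 were S100a6, S100a10 and S100a11, which are among the 10 genes, and S100a13, which lies at the other end of the cluster, next to S100a1. S100a10 and S100a11 are direct neighbours, set apart from the rest of the cluster by 54 protein-coding genes. S100a8 and S100a9, the calprotectin genes of neutrophils, reached at most 0.184 and 0.768 FPKM in Ebi3-Treg libraries and 0.952 and 2.51 in Blimp1-Treg libraries.

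**Figure D2:**
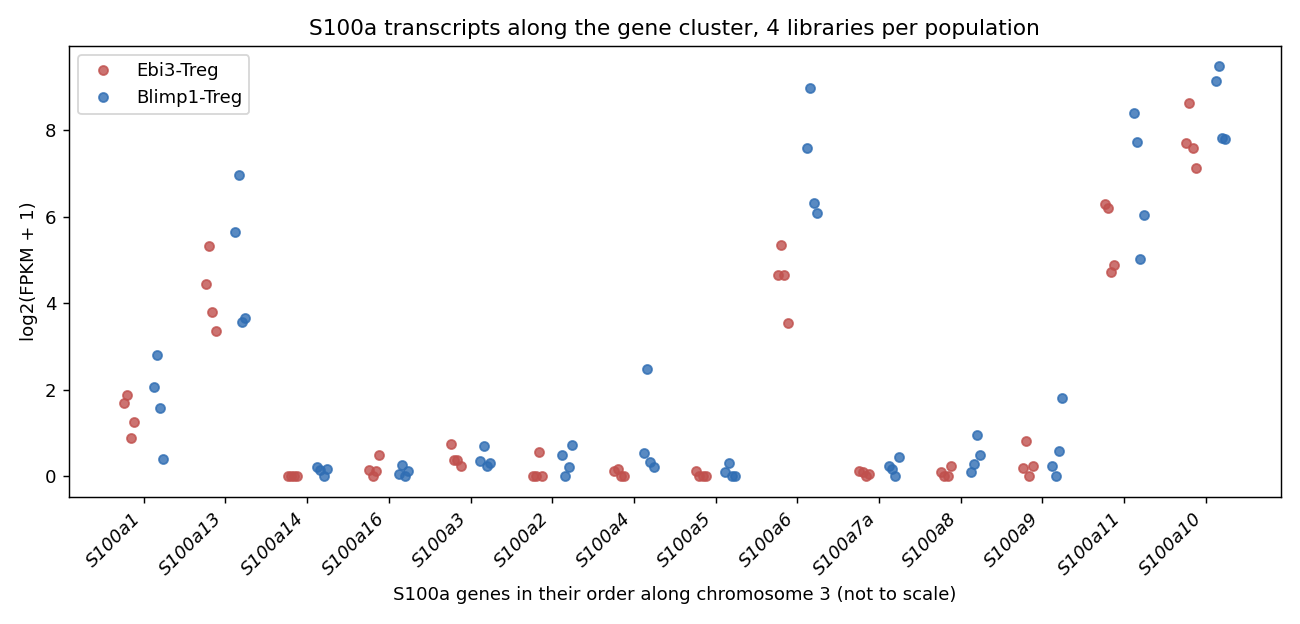
Log2(FPKM + 1) of the 14 S100a genes in the tables (vertical axis), in their order along chromosome 3 (horizontal axis, not to scale), with 4 Ebi3-Treg libraries (red) and 4 Blimp1-Treg libraries (blue) per gene. S100a6, S100a11, S100a10 and S100a13 are the 4 genes above 10 FPKM in any library, and 7 genes stay under 1 FPKM in all.

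Among the annexins, the groups lay apart for Anxa2, overlapped for Anxa5, and lay apart for Anxa1 in the second table alone. Anxa2 encodes the partner of S100a10, which can bind plasminogen at the cell surface. It was at 38.4, 36.7, 24.4 and 23.8 FPKM in Ebi3-Treg 1 to 4, against 84.6, 121, 125 and 127 FPKM in Blimp1-Treg 1 to 4. The groups did not overlap, and Blimp1-Treg 1 was the low library of its group. The log2 fold change was -1.88 (SE 0.22), with -1.41 in the first table (replicates 1 and 2) and -2.34 in the second. In the reference, 98 of its 3731 exon bases lie opposite the antisense gene Gm16144, which reached 1.09 FPKM.

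Anxa5 encodes the annexin used as a probe for phosphatidylserine on dying cells. It was at 161, 225, 143 and 146 FPKM in Ebi3-Treg 1 to 4, against 149, 225, 174 and 170 FPKM in Blimp1-Treg 1 to 4. The groups overlapped, with a log2 fold change of -0.10 (SE 0.18), which was 0.06 in the first table and -0.25 in the second.

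Anxa1 encodes a mediator of glucocorticoid action that signals through formyl peptide receptors. It was at 18.9, 12.2, 12.2 and 7.58 FPKM in Ebi3-Treg 1 to 4, against 19.0, 12.8, 41.2 and 31.9 FPKM in Blimp1-Treg 1 to 4. Between libraries of the same number, the log2 difference was -0.01 and -0.06 in replicates 1 and 2, and -1.67 and -1.94 in replicates 3 and 4. The difference between the tables was -1.77 on the log2 scale (SE 0.49). It comes from the same values by which the genes were chosen, so it is given as a description. In limma's interaction test over all genes it had an unadjusted p of 0.0093 and an adjusted p of 1.0, and its adjusted p was 0.0464 once the replicate number was a block. That test called 0 of 12273 genes (0.0%) without the block, where 203 had an unadjusted p under 0.05 and Anxa1 ranked 43 by that p. It called 13 genes (0.106%) with the block, and Anxa1 was 1 of the 13. For the other tested members the adjusted p with the block ran from 0.176 for Anxa2 to 0.795 for Vim. Xist, the RNA of the silent X chromosome, was at most 0.075 FPKM in the first table and at least 18.5 FPKM in the second, so the table and the sex of the mice cannot be told apart. The formyl peptide receptor genes Fpr1 and Fpr2 were at most 0.504 FPKM in Ebi3-Treg libraries and 0.473 in Blimp1-Treg libraries.

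Vim was the most even of the genes that differed, with 227, 282, 207 and 190 FPKM in Ebi3-Treg 1 to 4 and 448, 484, 389 and 289 FPKM in Blimp1-Treg 1 to 4. The groups did not overlap. The log2 fold change was -0.82 (SE 0.14), with -0.88 in the first table (replicates 1 and 2) and -0.76 in the second.

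**Figure D3:**
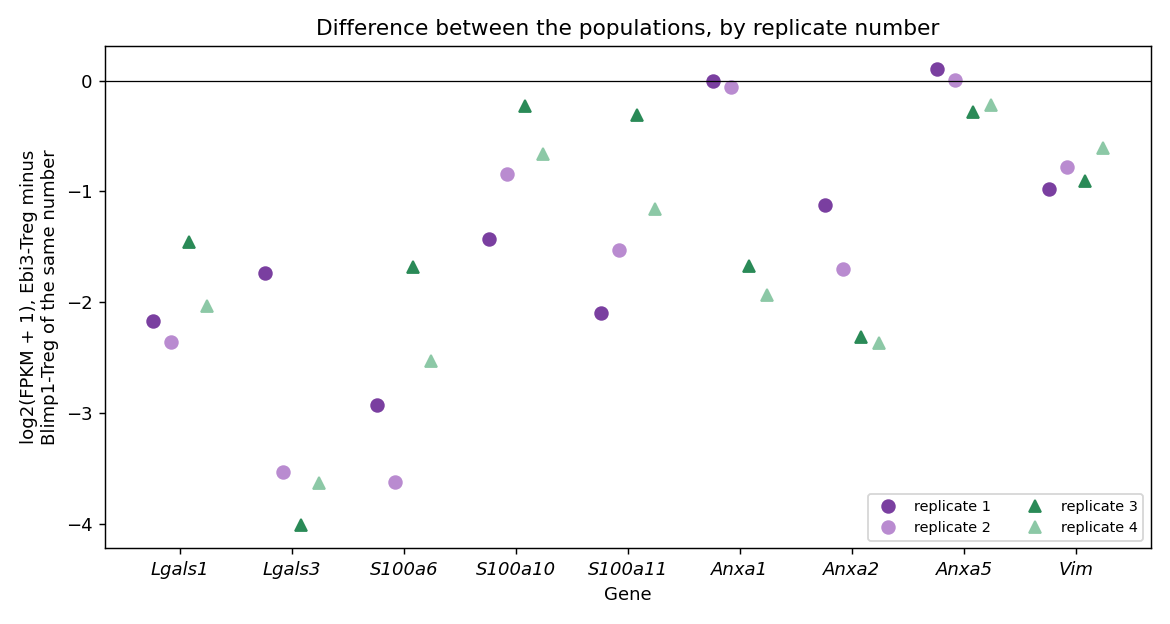
Difference in log2(FPKM + 1), Ebi3-Treg minus Blimp1-Treg of the same replicate number (vertical axis), for the 9 tested genes; circles are replicates 1 and 2, triangles replicates 3 and 4. Vim lies between -0.98 and -0.60 in all 4, and Anxa1 at -0.01 and -0.06 in replicates 1 and 2 and at -1.67 and -1.94 in replicates 3 and 4.

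S100a10 and Vim had the highest mean levels of the 10 in both groups. In Ebi3-Treg the order over both tables was S100a10 (233 ± 112 FPKM), Vim (226 ± 40.1), Anxa5 (169 ± 38.5), S100a11 (51.1 ± 28.0), Lgals1 (51.0 ± 37.8), Anxa2 (30.8 ± 7.78), S100a6 (24.7 ± 11.9), Anxa1 (12.7 ± 4.66) and Lgals3 (3.81 ± 4.12), each with its SD over 4 libraries. In Blimp1-Treg it was S100a10 (429 ± 247 FPKM), Vim (403 ± 85.4), Lgals1 (235 ± 212), S100a6 (210 ± 203), Anxa5 (179 ± 31.9), S100a11 (161 ± 140), Anxa2 (115 ± 20.2), Lgals3 (35.4 ± 5.44) and Anxa1 (26.2 ± 12.8). In Ebi3-Treg, neighbours in this order that differed by more than the larger of their SDs were Vim and Anxa5, Anxa5 and S100a11, S100a6 and Anxa1, and Anxa1 and Lgals3. Among the genes listed, only Anxa2 and Lgals3 did in Blimp1-Treg. S100a4 was last in both groups. In Blimp1-Treg (1.36 ± 2.13 FPKM) it also lay below Anxa1 by more than the larger SD. The order differed between the tables. In the second table Vim was above S100a10 in both groups, with means of 198 and 164 FPKM in Ebi3-Treg and of 339 and 222 FPKM in Blimp1-Treg. In Blimp1-Treg, Lgals1, S100a6 and S100a11 (395, 347 and 274 FPKM) were above Anxa5 (187 FPKM) in the first table, whereas in the second Anxa5 (172 FPKM) and Anxa2 (126 FPKM) were above Lgals1, S100a6 and S100a11 (74.0, 73.0 and 48.3 FPKM).

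The levels of the short genes also followed the table. S100a11, S100a10, S100a6 and Lgals1, with 511 to 1367 bases of exon in the reference, were higher in replicates 1 and 2 than in replicates 3 and 4 by 1.99, 1.16, 1.49 and 2.07 on the log2(FPKM + 1) scale, over both groups. Of the longer genes, Anxa2 (3731 bases) differed by 0.15, Vim (4743 bases) by 0.41 and Anxa1 (2911 bases) by -0.28. Lgals3 (1858 bases) differed by 0.75 and Anxa5 (1777 bases) by 0.24. Over all tested protein-coding genes the same difference had a median of 1.20 for the 226 genes of up to 1 kb, 0.49 for 1133 genes of 1 to 2 kb, 0.05 for 3257 genes of 2 to 4 kb and -0.26 for 6053 genes over 4 kb. The shift was in both groups, with medians of 1.003 in Ebi3-Treg and 1.29 in Blimp1-Treg for genes of up to 1 kb, and of -0.19 in Ebi3-Treg and -0.32 in Blimp1-Treg for genes over 4 kb. The difference between the groups had a median of 0.02 in the shortest class and 0.06 in the longest. Its change between the tables (replicates 3 and 4 minus 1 and 2) had a median of 0.39 in the shortest class. The median was 0.09 for genes of 1 to 2 kb and -0.12 in the longest class. This change was 0.52 for Lgals1 and 1.08 for S100a11, which are of up to 1 kb. Among the members of 1 to 2 kb it went both ways, with 1.17 for S100a6, 0.69 for S100a10, -1.19 for Lgals3 and -0.31 for Anxa5. S100a11 was the 1 tested member with all 4 libraries of replicates 1 and 2 above all 4 of replicates 3 and 4, which holds for 11.6% of all genes tested, and 0 of the 9 had them all below, which holds for 7.99%. The part of gene length in the levels of these genes was not tested.

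**Figure D4:**
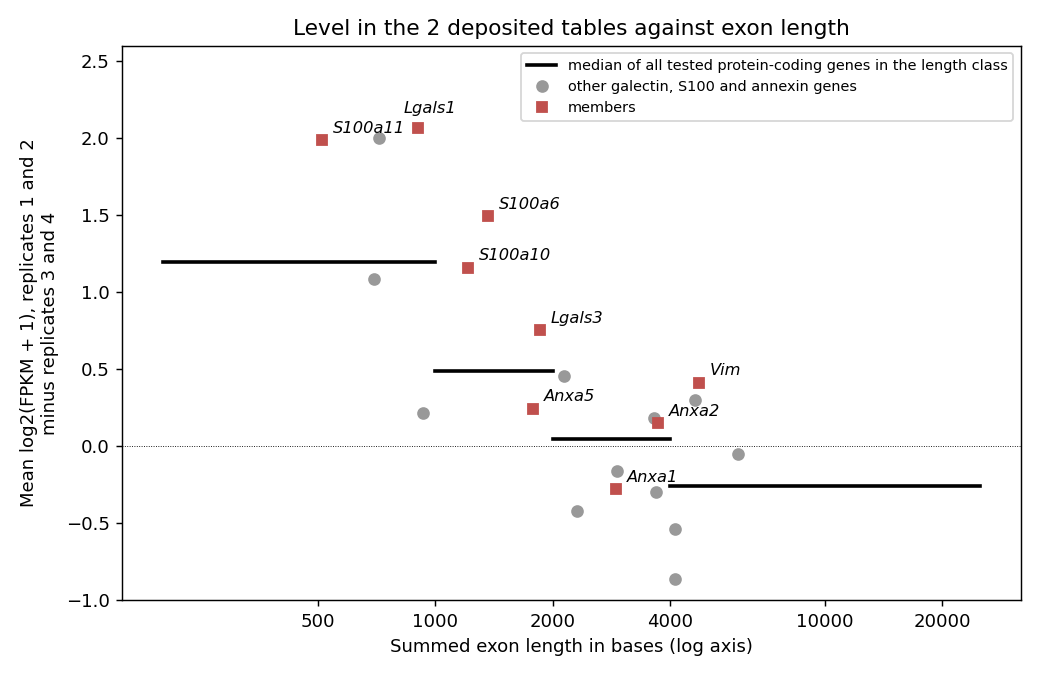
Mean log2(FPKM + 1) in replicates 1 and 2 minus replicates 3 and 4, over both groups (vertical axis), against summed exon length in bases (horizontal axis, log scale), for the 9 tested members (red squares) and 12 other galectin, S100 and annexin genes (grey); black lines are medians of all tested protein-coding genes in 4 length classes. The medians run from 1.20 for genes up to 1 kb to -0.26 for genes over 4 kb, and Lgals1 and S100a11 lie at 2.07 and 1.99.

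The rest of the 3 families was counted to see whether other members differed, taking every gene on a list of these families. Of 31 other galectin, S100 and annexin genes listed, 29 were in the tables and 12 were tested. Of the 12, 0 were higher in Ebi3-Treg, 1 was lower and 11 did not pass, against 6.29% of all genes tested past the threshold in either direction, and the median log2 fold change was -0.36. The 1 gene was Anxa4, an annexin of epithelia and other cells, at 16.5, 18.9, 12.4 and 14.1 FPKM in Ebi3-Treg 1 to 4 and 28.7, 41.0, 30.1 and 28.8 FPKM in Blimp1-Treg 1 to 4. Its groups did not overlap, and it fell by 1.01 on the log2 scale (SE 0.16, limma adjusted p = 0.0092).

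With the replicate block 3 of the 12 were lower, all annexins, where 8.94% of all genes tested were lower and 22.4% were called in either direction. Anxa6, the most abundant annexin in these cells, which links membranes to cholesterol transport, averaged 273 ± 24.1 FPKM in Ebi3-Treg libraries, against 352 ± 49.6 in Blimp1-Treg libraries (SD, n = 4). Its log2 fold change was -0.36 (limma adjusted p = 0.196, and 0.0146 with the block). Anxa7 had -0.46 (adjusted p = 0.129, and 0.0226 with the block). Of 5 other galectins tested, 0 passed, with or without the block. Lgals9, which encodes galectin-9, a ligand of the inhibitory receptor TIM-3, averaged 206 ± 43.6 FPKM in Ebi3-Treg libraries, against 173 ± 39.2 in Blimp1-Treg libraries (SD, n = 4, log2 fold change 0.25, limma adjusted p = 0.433). S100a13, which takes part in the export of secreted proteins that lack a signal peptide, was at 20.8, 39.2, 12.8 and 9.31 FPKM in Ebi3-Treg 1 to 4, against 48.9, 124, 10.9 and 11.6 FPKM in Blimp1-Treg 1 to 4. It followed the table like S100a11, and its log2 fold change was -0.73 (limma adjusted p = 0.407).

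**Figure D5:**
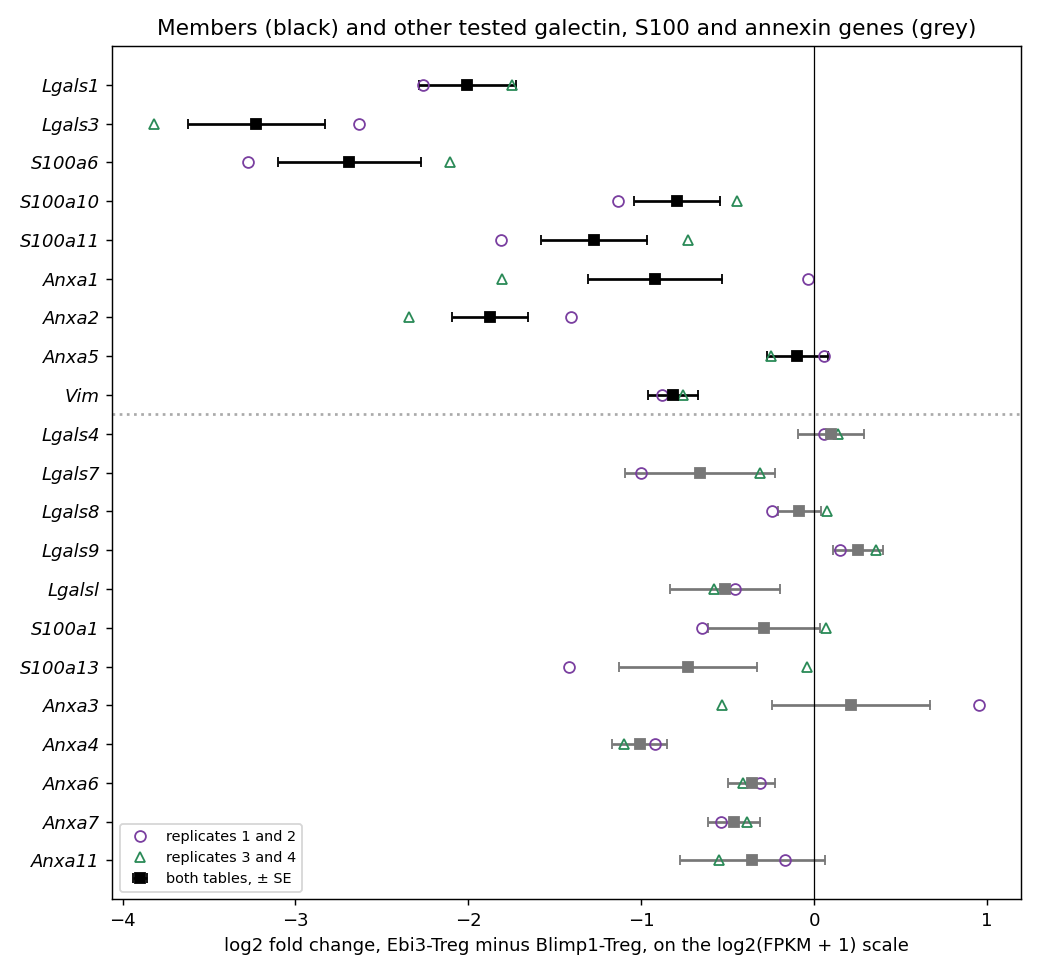
Log2 fold change, Ebi3-Treg minus Blimp1-Treg (horizontal axis), of the 9 tested members (black) and of 12 other tested galectin, S100 and annexin genes (grey), with the standard error of the fit over both tables; circles are replicates 1 and 2 alone and triangles replicates 3 and 4 alone. Lgals3 lies at -3.23 and Anxa5 at -0.10, and among the other genes Anxa4 lies at -1.01.

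In a list of partners and receptors of these proteins, Mgat5 was higher and Capg lower in Ebi3-Treg. The list also holds genes that are neither, such as Mgat5, a glycan enzyme gene, and Capg, an actin-capping gene. Of 12 listed, 9 were tested, 1 was higher in Ebi3-Treg, 1 lower and 7 did not pass, with a median log2 fold change of -0.02, and the block gave 1 higher and 3 lower. Of all genes tested, 6.29% were called without the block and 22.4% with it. This list and those that follow were chosen with earlier results of these data known, so their counts are descriptions. Mgat5, which encodes the enzyme that builds the branched N-glycans to which galectin-3 binds, was higher, with 18.3, 8.79, 16.9 and 15.2 FPKM in Ebi3-Treg 1 to 4 and 4.19, 2.78, 6.47 and 5.71 FPKM in Blimp1-Treg 1 to 4. The groups did not overlap, and the log2 fold change was 1.45 (SE 0.25, limma adjusted p = 0.0131, with 0.0526 without Ebi3-Treg 3 and 0.0566 without Blimp1-Treg 4). The actin-capping gene Capg was lower (840 ± 302 FPKM in Ebi3-Treg libraries, against 1616 ± 369 in Blimp1-Treg libraries, SD, n = 4, log2 fold change -0.98, limma adjusted p = 0.0289). Leaving out Ebi3-Treg 3, Ebi3-Treg 4 or any single Blimp1-Treg library lost the call of Capg, with an adjusted p of up to 0.109. Bsg, which encodes basigin, a receptor of S100A9 in human cells, was the most abundant of those that did not pass, with 219 ± 44.5 FPKM in Ebi3-Treg libraries, against 217 ± 33.2 in Blimp1-Treg libraries (SD, n = 4).

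Of 13 genes of intermediate filaments and membrane linkers, 10 were tested, 0 were higher, 1 was lower and 9 did not pass, with a median of -0.19, and 2 were lower with the block (6.29% of all genes tested called without the block, 22.4% with it). The lower gene was Lmnb1, which encodes lamin B1 of the nuclear envelope, with 28.5 ± 5.75 FPKM in Ebi3-Treg libraries, against 65.1 ± 10.7 in Blimp1-Treg libraries (SD, n = 4, log2 fold change -1.17, limma adjusted p = 0.0104, with 0.0503 without Blimp1-Treg 4). Msn, which encodes moesin and was the most abundant of those that did not pass, had 558 ± 132 FPKM in Ebi3-Treg libraries, against 628 ± 160 in Blimp1-Treg libraries (SD, n = 4, limma adjusted p = 0.805). The intermediate filament genes Des, Gfap and Nes, which mark muscle, glia and progenitors, were at most 0.353 FPKM in Ebi3-Treg libraries and 0.659 in Blimp1-Treg libraries.

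All 15 genes listed for activated and tissue-seeking T cells were tested, a list that also holds the lymph node homing gene Ccr7. Of these, 1 was higher in Ebi3-Treg, 3 were lower and 11 did not pass, with a median of -0.61, and the block gave 1 higher and 8 lower (6.29% of all genes tested called without it, 22.4% with it). The list was chosen with earlier results of these data known, so its counts and adjusted p are descriptions. Of the 15, 11 had a negative log2 fold change. Cd44 (0.17), Itgb1 (0.53) and Itga4 (0.16), which did not pass, had a positive one, as did Ccr7. The 3 genes past the threshold on the lower side encode receptors for inflammatory chemokines. Ccr2 averaged 2.01 ± 1.71 FPKM in Ebi3-Treg libraries, against 118 ± 44.4 in Blimp1-Treg libraries (SD, n = 4, log2 fold change -5.38, limma adjusted p = 0.00031). Cxcr6 (log2 fold change -1.75, limma adjusted p = 0.0275) and Cxcr3 (-1.04, adjusted p = 0.0341) were lower by less. Ccr7, which guides T cells into lymph nodes, was higher, at 712 ± 701 FPKM in Ebi3-Treg libraries, against 74.3 ± 54.3 in Blimp1-Treg libraries (SD, n = 4, log2 fold change 3.12, limma adjusted p = 0.0025). The call of Cxcr6 was lost when Ebi3-Treg 2, Ebi3-Treg 4 or Blimp1-Treg 1, 3 or 4 was left out, with an adjusted p of up to 0.104. That of Cxcr3 was lost on leaving out Ebi3-Treg 1, 3 or 4 or Blimp1-Treg 2, 3 or 4, with up to 0.126. The integrin gene Itgb7 had the highest mean of those that did not pass, with 669 ± 103 FPKM in Ebi3-Treg libraries, against 1096 ± 279 in Blimp1-Treg libraries (SD, n = 4, log2 fold change -0.68, limma adjusted p = 0.106, and 0.00522 with the block).

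Across the 8 libraries, which share tables and replicate numbers, each tested member was set against the mean log2(FPKM + 1) of the others. Pearson's r was 0.96 for Vim, 0.94 for S100a6, 0.93 for Lgals1, 0.85 for Lgals3, 0.84 for Anxa2, 0.81 for S100a10, 0.75 for S100a11, 0.47 for Anxa5 and 0.40 for Anxa1. Of 8450 other genes compared with the mean profile of the tested members, the 8 most alike by Pearson's r were Ripk3 (0.99), Ccnb2 (0.98), Birc5 (0.98), Rdh11 (0.98), Rrm2 (0.98), Smim24 (0.98), Fbxo5 (0.97) and Cip2a (0.97). Ccnb2, Birc5, Rrm2 and Fbxo5 encode proteins of the cell cycle, and Ripk3 encodes a kinase of necroptosis. Rrm2, for example, was at 45.3, 48.9, 17.4 and 20.2 FPKM in Ebi3-Treg 1 to 4 and 126, 137, 73.1 and 89.6 FPKM in Blimp1-Treg 1 to 4, so it shared both the order of the groups and that of the tables. These correlations are over 8 libraries of 2 groups and are a description. Because the members were chosen by their difference between these groups, r is raised among them and with any gene that differs likewise.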

How the data were processed

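The deposited values were the authors' FPKM in 2 tables, a unit taken from the names of the tables. How they were scaled is not given in the sources used here. Named tools are TopHat2 2.0.12, HTSeq 0.6.1 and Bowtie2 2.2.3, with build mm9, per the submitters' processing notes. The step each tool did, the counting mode and the annotation are likewise not given. Per the labels' protocols, cells were sorted to a typical purity above 90% and libraries made with a SMART-Seq v4 low-input kit, which amplifies cDNA, so depth covers counting error only. Of 47069 Ensembl genes in both tables, 46488 had a symbol in GENCODE M21 (GRCm38), used for names, exon lengths and overlaps. Depth was read from the step that 1 read makes in FPKM times exon length, and 34.9% to 45.5% of values above 0 were whole, within 0.01 reads, with that length.

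A gene was tested if 4 of 8 libraries or more had 1 FPKM or more (12273 genes). Values of log2(FPKM + 1) were fitted on population and table (limma 3.58.1, R 4.3.3) with a variance trend, Benjamini-Hochberg adjusted over all genes, two-sided, threshold 0.05. The code was tested on simulated data. Fold changes of low genes are understated on this scale. Separate fits used each table alone, and an interaction term gave the difference between tables. Same-numbered libraries deviated together from their group means across genes (r = 0.62, 0.89, 0.53 and 0.54 for numbers 1 to 4). Against the other number of the same table, r was -0.27, -0.02, 0.56 and 0.61. Numbers 3 and 4 thus showed no pairing beyond the table. The replicate number was used as a block in an alternative. Relative to group means within a table, r was 0.85 for numbers 1 and 2 and -0.08 for 3 and 4. The members and lists were chosen with earlier results of these data known. Named genes are the members and, of each other list, the genes past the threshold and the most abundant that did not pass, the gate genes, and the 8 genes most like the mean of the members (no gene models, pseudogenes or receptor segments, mean of at least 5 FPKM). Anxa7, S100a8, S100a9, Fpr1, Fpr2, Des, Gfap, Nes, Cd44, Itgb1, Itga4, Xist and single cell type markers were added after their values were seen. Reads of near-identical copies and overlapping genes may be shared, and whether strand was used is not known. Some listed genes and a further sort marker shared by both groups are not reported here.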

Additional observations from a re-analysis of the deposited data

Results flagged for a closer look

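In groups of 4 libraries, a library was looked for whose gap to its nearest neighbour took a very large share of the group's range. The search covered 22 genes and 2 groups, 44 in all, with a strict cut that chance passes in about 1 in 20. There were 6 such cases, with shares of 0.856 to 0.932 of the range. Lgals3 was at 9.94 FPKM in Ebi3-Treg 1, against 1.32 to 2.44 FPKM in the other Ebi3-Treg libraries. That library also had the highest sum of 6 of the 8 cell type marker lists: macrophage and monocyte (111 FPKM), B cell (248 FPKM), CD8 and NK cell (63.4 FPKM), dendritic cell (21.5 FPKM), neutrophil and mast cell (26.9 FPKM) and fibroblast and endothelial cell (69.7 FPKM). In Ebi3-Treg 1, single genes made up most of some of these sums. Lyz2 gave 99.1 FPKM of the macrophage sum, Pecam1 61.2 FPKM of the fibroblast and endothelial sum, and Kit 24.2 FPKM of the neutrophil and mast cell sum. The B cell sum was spread over several genes, with Cd79b at 70.9 FPKM and Cd79a at 65.1 FPKM. The part of such cells in the level of Lgals3 was not tested. Anxa2 was at 84.6 FPKM in Blimp1-Treg 1, against 121 to 127 FPKM in the others. S100a4 was at 4.55 FPKM in Blimp1-Treg 2, against 0.163 to 0.46 FPKM. Anxa4 was at 41.0 FPKM in Blimp1-Treg 2, against 28.7 to 30.1 FPKM. Lgals4 was at 8.53 FPKM in Blimp1-Treg 2, against 14.6 to 15.5 FPKM. Lgalsl was at 3.50 FPKM in Ebi3-Treg 2, against 11.9 to 12.8 FPKM. Of the 6, 4 fell on a library numbered 2.

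The difference between the groups differed between tables for Anxa1 by -1.77 on the log2 scale, past the threshold with the replicate block in limma's interaction test (adjusted p = 0.0464) and not without it (adjusted p = 1.0). Over the other alternatives its adjusted p ran from 0.384, without both libraries numbered 1, to 1.0.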

How the results depend on the processing

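All 153 values of the 9 tested members under 17 alternatives were negative, as in the fit reported. A changed filter, the replicate block, and leaving out the table term or the variance trend left each fold change as it was. The members were picked with this contrast known, so nothing is read from the shared sign. The median log2 fold change of the 9 members, -1.27, ran from -1.58 without Blimp1-Treg 3 to -1.03 without Blimp1-Treg 1. The count of genes past the threshold, 772 over both tables, was 420 without a filter, 441 without the table term, 2752 with the replicate block, 341 to 771 without single libraries, and, chosen after seeing the data, 1970 without both libraries numbered 1 and 1962 without both numbered 2. For replicates 3 and 4 alone the count of 1347 was 0 without a filter (limma, 4582 at an unadjusted p under 0.05), 764 without the variance trend and 143 to 485 without single libraries. For replicates 1 and 2 alone the count of 0, with 707 at an unadjusted p under 0.05, was 2855 with the replicate block and 8 to 76 without single libraries. The difference between tables gave 13 genes with the block, against 0. Of the 12 other galectin, S100 and annexin genes, 3 passed with the replicate block, 2 without both libraries numbered 1, 2 without both numbered 2, and 1 whichever single library was left out. Anxa4 passed under all 17 alternatives (adjusted p up to 0.0484). Capg, Cxcr6 and Cxcr3 were not called without a filter (adjusted p = 0.0714, 0.065 and 0.0935) nor without the table term (0.103, 0.063 and 0.0614), nor Ccr7 without the table term (0.0523). Leaving out both libraries of a number leaves 1 library per group in the first table, assumed to vary like the others, and could not be fitted for replicates 1 and 2 alone.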
